A study of Mus with 5 samples.

Results

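The genes of the Ikaros family, Ikzf1 to Ikzf5, and Myb were examined for binding of the retinoic acid receptor RARα and of BATF in mouse CD8 T cells. Their peaks were all those in the 4 annotated peak lists of the series whose gene field names one of the 6 genes, which gave 59 of 27480 peaks. The lists come from chromatin immunoprecipitation followed by sequencing (ChIP-seq), in which DNA fragments bound by a protein are recovered with an antibody and places where fragments pile up are called as peaks. Spleens of wild-type (WT) mice supplied the CD8 T cells. Activation by antibodies to CD3 and CD28, with IL-2 present, took 24 h. A rest of the same length, with 100 U/ml IL-2, came next. For the final 1 h the cells had either no retinoic acid (control) or a 50 nM dose of it (RA). The labels still call them naive, their treatment field names a different interleukin for each ChIP list, and for the normal rabbit IgG sample no RA status is stated. The study's methods give C57BL/6 and dLck-Cre mice as its WT controls and a range of ages for most of its experiments, but not which of these supplied the ChIP samples. Each list had been called on a pool of 2 alignment files against the same single IgG file, on the mm10 genome. For RARα the depth was 22655611 fragments in the control pool and 22475060 in the RA pool. BATF had 23110180 and 16424269 in the same order, and the IgG file had 11410673. There is thus 1 list per condition and no replicate, so every difference between conditions below is a description without a test. Whether the 2 files of a pool are separate samples or repeat runs is not stated. Bounds given after a share are its 95% interval by the method of Wilson and allow for counting error alone.

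The Ikaros family are zinc finger transcription factors of lymphocytes that bind DNA with one group of fingers and pair with each other through another. Ikaros (Ikzf1) and Aiolos (Ikzf3) recruit chromatin remodelling and deacetylase complexes and restrain cytokine and effector genes, Helios (Ikzf2) and Eos (Ikzf4) are best known from regulatory T cells, and Pegasus (Ikzf5) is the most divergent member. Myb encodes c-Myb, a factor of stem cells and of long-lived, self-renewing CD8 T cells. BATF is an AP-1 factor that works with IRF4 in effector differentiation, and RARα is a nuclear receptor through which RA acts. On mm10, Ikzf1 lies on chromosome 11 from 11684962 to 11772930 and Ikzf3 on the same chromosome from 98464610 to 98546031. Ikzf2 lies on chromosome 1 from 69531207 to 69687351 and Ikzf5 on chromosome 7 from 131388649 to 131410518. Chromosome 10 holds Myb, from 21124930 to 21160984, and Ikzf4, from 128630839 to 128669671.

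BATF supplied most of the peaks at these genes. In the BATF lists 40 peaks named a member in the control and 15 with RA, and in the RARα lists 3 and 1. The lists themselves differ in length and p-value cutoff, and the members took a like share of them, 0.253% of 15812 BATF and 0.256% of 1172 RARα control peaks, and 0.152% of 9899 and 0.168% of 597 with RA. A BATF peak was assigned to 5 of the 6 genes in either condition, against 48.6% of all protein-coding genes without RA and 38.2% with it. Among genes with a BATF control peak, 76.5% had an RA peak too, as did all 5 members, and 55.4% had fewer peaks with RA, as did Ikzf1, Ikzf3 and Myb. For Myb this rested on distal peaks that also name other genes, since within 10 kb of the gene, or among peaks naming Myb alone, it had 2 control and 3 RA peaks. RARα peaks were assigned to 2 of the 6 genes in the control (7.18% of protein-coding genes) and to 1 with RA (3.19%). Ikzf5 had no peak in any list, and Ikzf3 was the single member with a peak in all 4 lists, as were 0.904% of protein-coding genes.

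**Figure D1:**
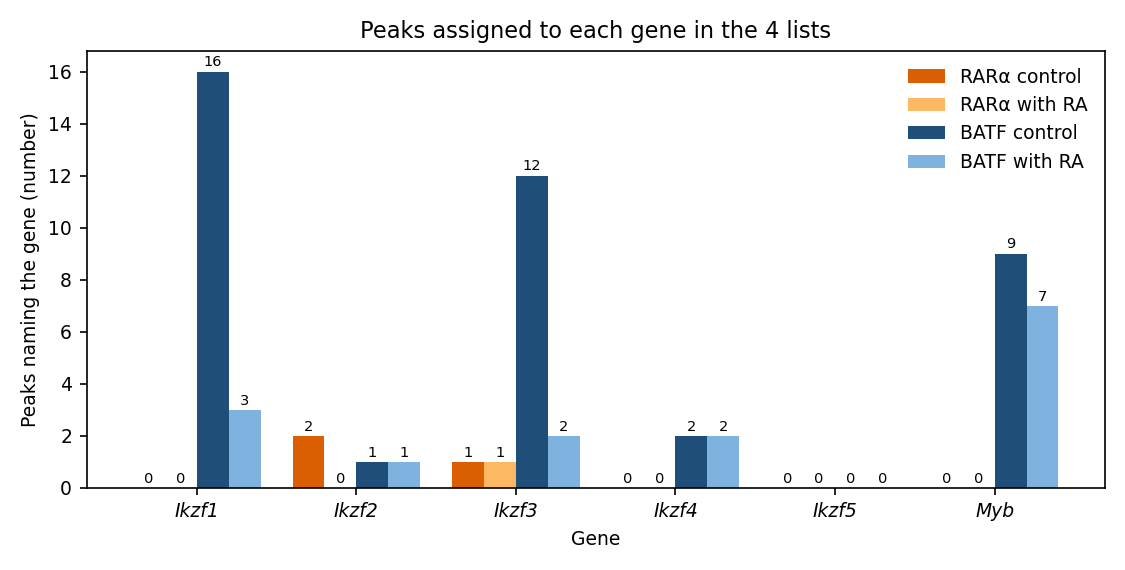
Number of peaks (vertical axis) that name each gene (horizontal axis) in the RARα control, RARα RA, BATF control and BATF RA lists, 1 pooled list per bar. BATF control peaks fell from 16 to 3 at Ikzf1 and from 12 to 2 at Ikzf3, while Myb had 9 and 7, and Ikzf5 had none.

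The strongest binding lay in Helios. A single BATF peak in intron 6 of Ikzf2, on chromosome 1 from 69543935 to 69544892, had a pileup (fragments at the summit) of 206 and a fold enrichment over the local IgG level of 53.7 in the control. It ranked 4 of 15812 peaks by fold in that list. With RA the peak at this site, from 69543879 to 69544686, had a pileup of 133 and a fold of 44.3, rank 12 of 9899, with its summit 19 bp away. Divided by the depth of its pool (fragments per 1000000), the summit stood at 9.04 for control and 8.10 for RA, a ratio of 0.895. The IgG level at this site equalled the background level of both lists, so the fold rested on the ChIP fragments alone. No other BATF peak was assigned to the 156 kb gene, and neither list had a BATF peak at its promoter.

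RARα peaks at Ikzf2 were weak and apart from the BATF site. In the control, intron 4 held a peak at 69573730 to 69574043 of 10 fragments and fold 2.77. A second one, in an LTR repeat 39.2 kb beyond the gene at 69726528 to 69726848, counted 9 fragments at a fold of 2.58. Their -log10 p, which grows with the evidence for a peak, was 3.56 and 3.09 and stood close to the cutoff of the list, a p-value of 0.001. BATF control binding came no closer than 28838 bp to the first and 181636 bp to the second, and the nearest RARα peaks with RA were 385131 bp and 232326 bp away.

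Aiolos had the one site where both factors were found in both conditions. It lies on chromosome 11 below the end of Ikzf3, 6.20 kb from the gene, and the annotation of the RARα control peak names 10 genes for it. By the RefSeq table for GRCm38.p6 it reaches into Mien1, a migration and invasion factor, whose range ends at 98458230, so Ikzf3 is not the nearest gene. RARα control binding, called at 98457909 to 98458409, reached 26 fragments and a fold of 5.43, the highest RARα value among the members and rank 87 of 1172. With RA it was called at 98458113 to 98458543 and reached 20 fragments and a fold of 3.04, over an IgG level of 2.0 times background against 1.38 in the control.

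BATF at the same site had a pileup of 34.6 and a fold of 8.89 in the control, from 98457549 to 98458337, and 17 fragments and a fold of 4.64 with RA, from 98457866 to 98458132. The BATF control summit was 32 bp from the RARα control summit, and with RA the 2 summits were 335 bp apart and the peaks overlapped by 20 bp. The fold with RA was 0.560 times the control for RARα and 0.522 times for BATF. Scaled to the depth of each pool, the pileup ratios were 0.775 and 0.683, so both factors were lower with RA on either scale, in single pools without a replicate check. At 98550057 to 98550292 a further RARα control peak of fold 2.82 lay 4026 bp from the other end of Ikzf3 but was assigned to Zpbp2 alone.

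**Figure D2:**
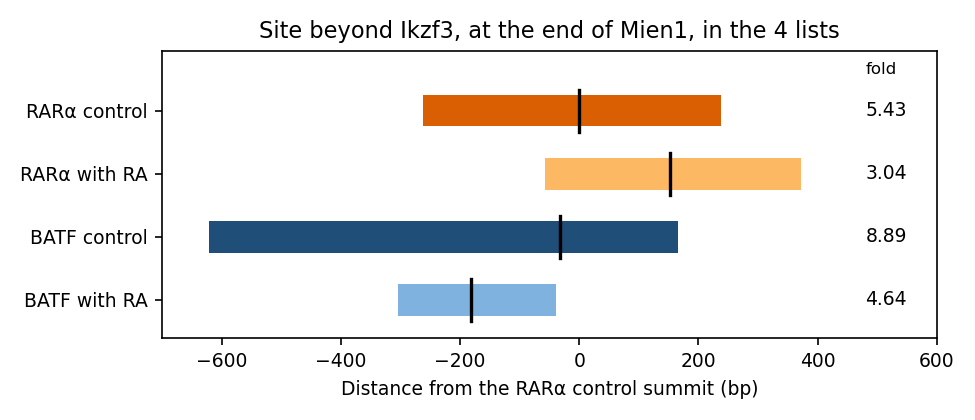
Extent of the peak in each of the 4 lists at the site beyond Ikzf3, as distance in bp from the RARα control summit, with black bars for summits and the fold enrichment at the right. The control peaks overlap over most of the RARα peak, whereas with RA the RARα and BATF peaks share 20 bp.

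Of the 3 RARα control peaks at the members, 1 had a BATF control peak within 5 kb (33.3%, 6.15 to 79.2), where 61.9% of the whole list did. The same peak was the only 1 of the 3 with a RARα RA peak within 5 kb, as 10.2% of the list had. From so few peaks neither share can be told from that of the list. Ikzf1, Ikzf4, Ikzf5 and Myb had no RARα peak within 100 kb in either condition. The nearest RARα control peaks lay 1697072 bp from Ikzf1, 176095 bp from Ikzf4, 559765 bp from Ikzf5 and 259462 bp from Myb.

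At Myb, 6 of 9 BATF control peaks overlapped an RA peak (66.7%, 35.4 to 87.9), a share that cannot be told from the 54.4% of the whole list, and 7 of 9 had one within 5 kb (69.9% of the list). Its promoter was covered in the control by 2 peaks on chromosome 10. The stronger, from 21157733 to 21160263, had a pileup of 50.4 and a fold of 12.5, the second highest member after Ikzf2. The other, from 21160516 to 21161854, had 35.6 and a fold of 9.47. With RA the promoter had 3 peaks with folds of 10.6, 9.26 and 7.27, and 2 of these lay within the first control peak. The IgG level was 1.09 times background at the stronger control peak and 1.00 times at the other.

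Between Myb and Hbs1l, a translation factor gene, the control list had 6 further BATF peaks and the RA list 4. This interval is known from erythroid cells as the seat of distal Myb enhancers. The strongest of these peaks, 39.2 kb from Myb and from 21200135 to 21200639, had a pileup of 56.3 and a fold of 10.3 in the control. With RA its pileup was 38 and its fold 9.36, with the summits 5 bp apart. Weaker control peaks at 43.5, 74.2 and 90.9 kb, with folds of 3.79, 3.73 and 3.62, also overlapped RA peaks, with folds of 4.62, 3.64 and 4.13. The peaks at 35.6 and 62.9 kb, with folds of 6.13 and 5.44, had no overlapping RA peak, nor did a peak 25.1 kb on the other side, towards Ahi1. For the peaks at 74.2 and 90.9 kb Hbs1l was the nearer gene, and for the one towards Ahi1 it was Ahi1, and all of these distal peaks name other genes beside Myb.

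**Figure D3:**
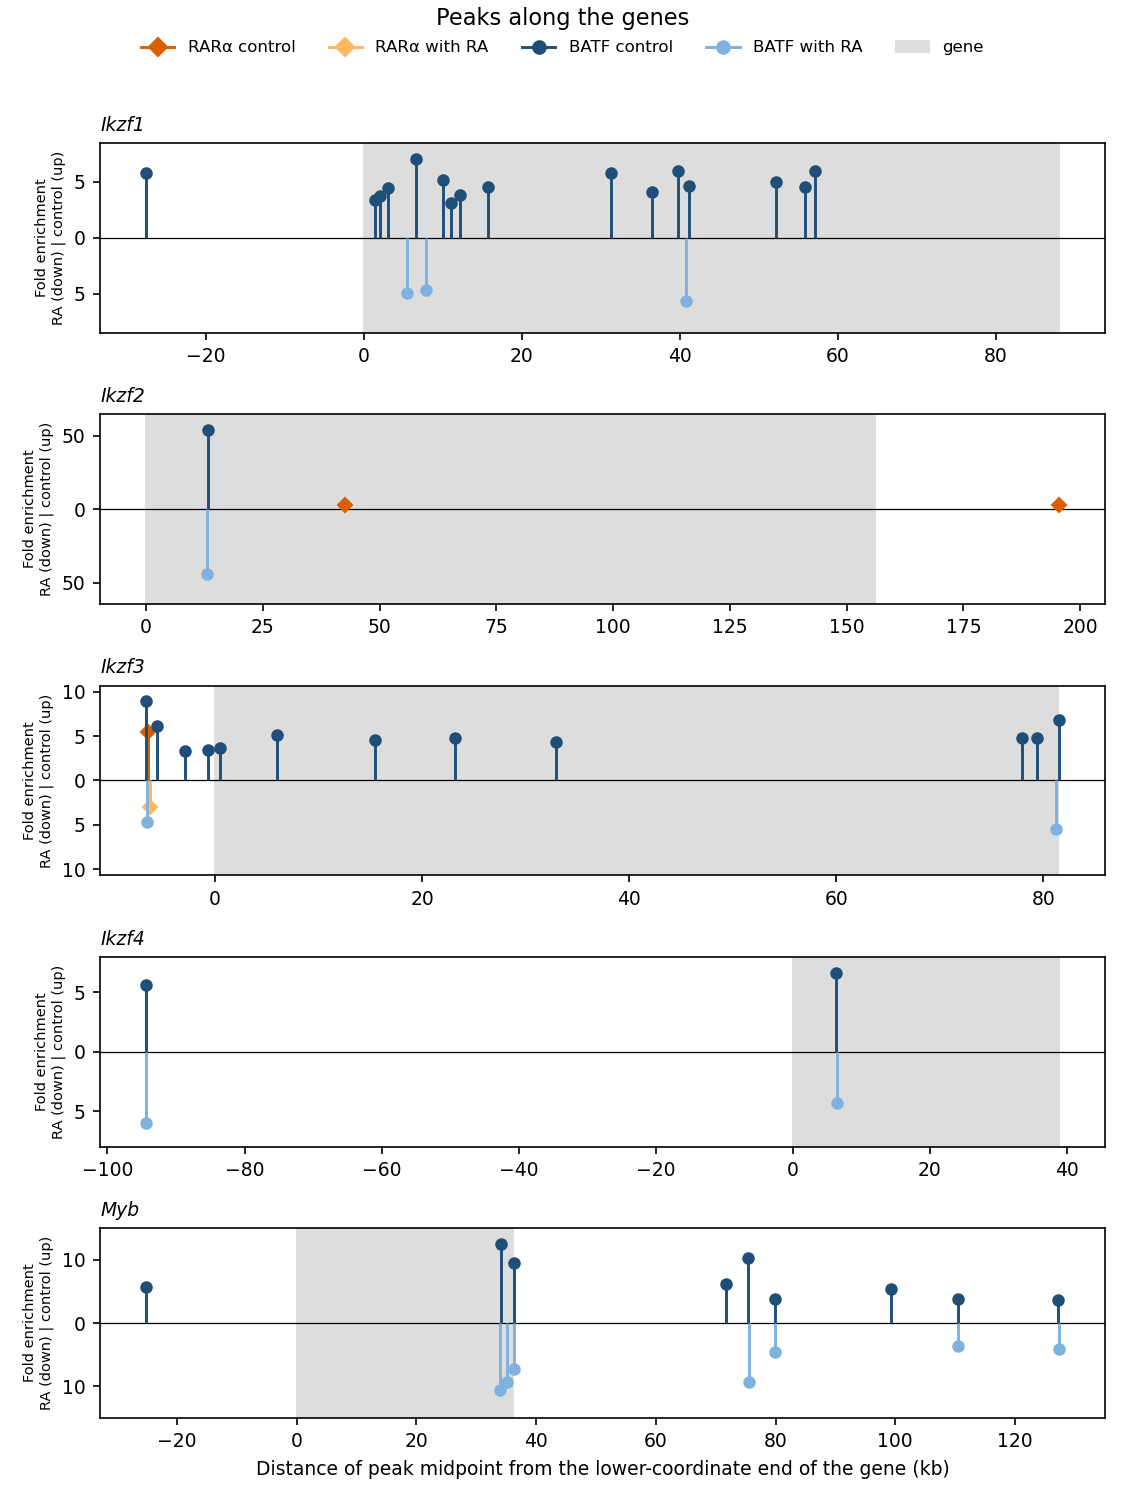
Fold enrichment of each peak (vertical axis, control upward and RA downward) against the distance of its midpoint from the lower-coordinate end of the gene in kb, with the gene shaded, for Ikzf1, Ikzf2, Ikzf3, Ikzf4 and Myb. All 15 BATF RA peaks overlap control peaks. Of the BATF control peaks, 6 of 9 at Myb, 2 of 16 at Ikzf1 and 2 of 12 at Ikzf3 overlap an RA peak. The vertical scale of Ikzf2 reaches above 50.

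Ikaros had the most BATF peaks in the control and few with RA. The 16 control peaks of Ikzf1 all name this gene alone, 15 lie within its 88.0 kb and 1 lies 27.4 kb below its start. By class they were 3 promoter, 12 intron and 1 intergenic peaks, with pileups from 15.8 to 48.4 (median 25.7) and folds from 3.09 to 7.06 (median 4.59), below the list median of 5.40. As many BATF control peaks or more were found at 29 of 21900 protein-coding genes. At least 9 such peaks, the number at Myb, were found at 0.868% of genes, with Ikzf1, Ikzf3 and Myb among them. The strongest was a 5062 bp stretch from 11688974 to 11694035 on chromosome 11, with a fold of 7.06.

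With RA, 3 peaks remained, all in introns, with folds of 4.97, 4.67 and 5.63 over IgG levels of 2.49, 1.62 and 2.49 times background. The first, from 11689988 to 11690975, and the second, from 11692557 to 11693062, both lay within the 5062 bp control peak, and the third, from 11725493 to 11725964, lay within a control peak of fold 4.64. These 2 control peaks had IgG levels of 2.10 and 3.15 times background, against a median of 1.75 at the other 14. The promoter class peaks, with control folds of 3.33, 3.69 and 4.45, had no RA peak over them. In all, 2 of the 16 control peaks overlapped an RA peak (12.5%, 3.50 to 36.0, against 54.4% of the list), while 10 had one within 5 kb (62.5%, 38.6 to 81.5, against 69.9%). The 8 peaks between these counts were neighbours of an RA peak and had none of their own. In the list the overlap share was 41.3% for introns, the class of 12 of the 16 peaks, and 61.2% for promoters.

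Aiolos, too, had many BATF control peaks and few with RA. Ikzf3 had 12 BATF control peaks, 4 intergenic ones within 6.27 kb below the gene, 1 in the last exon, 5 in introns and 2 at the promoter, with folds from 3.33 to 8.89 (median 4.75). The 4 intergenic peaks name 9 to 11 genes each, and 2 of them lie nearest to Mien1. The RA list had 2 peaks, at the site shared with RARα and at the promoter. Of the control peaks 8 name Ikzf3 alone, and of the RA peaks 1 does. A fold of at least 5 was reached by 4 control peaks and 1 RA peak. The promoter peak, from 98545084 to 98547172, had a pileup of 36.5 and a fold of 6.76 in the control, and 22 fragments and a fold of 5.52 with RA, with summits 17 bp apart. The other 10 control peaks, with pileups from 16.8 to 34.6, had no overlapping RA peak (2 of 12 kept, 16.7%, 4.70 to 44.8, against 54.4% of the list). Within 5 kb, 6 of the 12 had one (50.0%, 25.4 to 74.6), a share that cannot be told from the 69.9% of the list.

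Fewer peaks with RA were common among genes with many BATF peaks. Of the 127 genes with at least 10 BATF control peaks, 57.5% had no more than 50% as many in the RA list, Ikzf1 and Ikzf3 among them. Both stood at the low end. For the 64 genes with at least 12 control peaks, the median RA count was 46.2% of the control count. Only 5 of the 64 were at 25% or less. Ikzf3 was lowest at 16.7%, and Ikzf1, Ifnar1 and Il10rb followed at 18.75%. A peak was counted for every gene it names, so neighbouring genes in these ranks need not be separate sites. A drop of at least 13 peaks, the size at Ikzf1, was found at 5 of 21900 protein-coding genes, Ikzf1 included. Such genes were picked by a high control count in single pools, and these ranks were not tested. Nothing particular to Ikzf1 and Ikzf3 is read from them.

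Eos had a BATF peak inside the gene in both conditions. The control peak of Ikzf4, on chromosome 10 from 128636730 to 128637587 and classed as exon, had a pileup of 24.7 and a fold of 6.65. The RA peak, at 128637129 to 128637378, reached 12 fragments and a fold of 4.30. Both are in intron 6 of one transcript by the detailed annotation. A second peak in both lists, 93.9 kb below the gene in the control with folds of 5.60 in the control and 6.01 with RA, names 14 genes and lies nearest to Zc3h10. At Pegasus, the BATF control peak nearest to Ikzf5 was a promoter peak of Pstk, 17240 bp away with a fold of 3.70, and with RA the nearest was 149874 bp away.

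Across the members, 13 of the 40 BATF control peaks overlapped an RA peak (32.5%, 20.1 to 48.0), against 54.4% of the list, and 26 had one within 5 kb (65.0%, 49.5 to 77.9), against 69.9%. All 15 RA peaks overlapped a control peak, as did 93.6% of the RA list. The control peaks that overlapped an RA peak had a median pileup of 35.6 and a median -log10 p of 20.7, against 23.7 and 9.99 for the 27 others. The order of median pileup also held within Ikzf1, Ikzf3 and Myb, with 46.9 against 25.7, 35.6 against 22.2 and 34.1 against 22.7. Single peaks at Ikzf1 and Myb broke it, in fold as in -log10 p. At Myb the control peaks of fold 3.79, 3.73 and 3.62 overlapped RA peaks while those of fold 6.13, 5.68 and 5.44 did not, and at Ikzf1 a peak of fold 5.93 had no overlap while its neighbour of fold 4.64 had. At a -log10 p of 20 or more, 7 of 8 member peaks overlapped an RA peak, close to the 90.5% of such peaks in the list. From 10 to 20 it was 4 of 16 (50.5% of the list), and from 5 to 10 it was 2 of 16 (18.4%). By class, 3 of 7 promoter, 3 of 18 intron, 6 of 13 intergenic and 1 of 2 exon peaks of the members overlapped an RA peak. In the list these shares were 61.2%, 41.3%, 47.9% and 48.9%. Peaks of 1 gene are neighbours, so they are not independent.

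**Figure D4:**
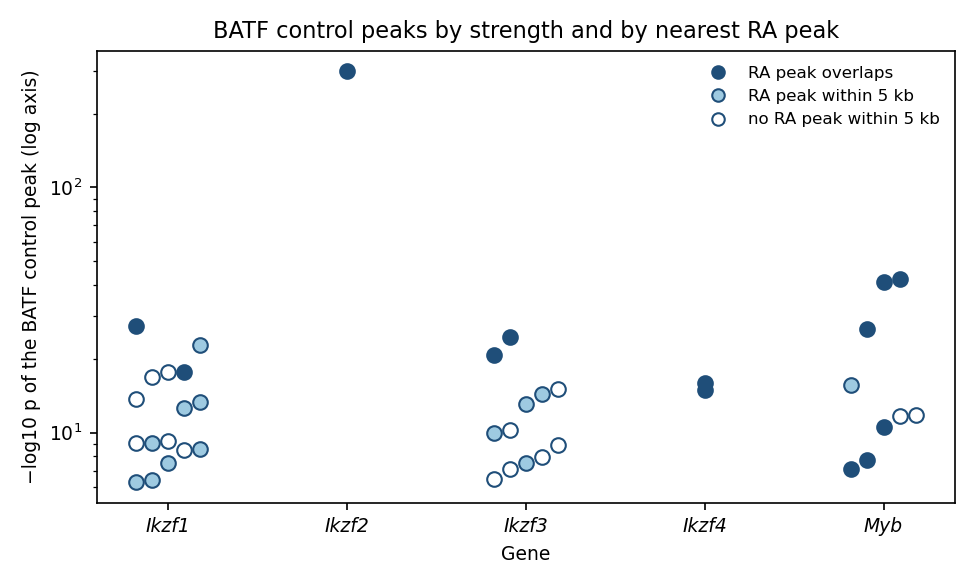
The -log10 p of each BATF control peak (vertical axis, logarithmic) by gene, filled dark where an RA peak overlaps, light where an RA peak lies within 5 kb, and open where there is none. Peaks with high values were mostly dark, 7 of the 8 above 20, and the open points lie below 20.

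The BATF RA pool held 71.1% of the control fragments. When the fragments and IgG level of each control peak were scaled to that pool, all 40 member peaks still passed the p-value cutoff of 1e-05, as did 95.1% of the whole list and 91.0% of the control peaks in the list that had no RA peak within 5 kb. This calculation makes no allowance for the sampling of fragments or for the choice of peaks by their height, and what part depth has in the missing peaks was not tested. Since each condition is 1 pool, the RA treatment cannot be told apart from any other difference between the pools.

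At the 13 overlapping pairs, the RA fold was lower in 9 (69.2%, 42.4 to 87.3), as it was in 75.5% of the pairs of the whole list. The median ratio of RA to control was 0.848 at the members and 0.827 in the list. The fold was lower by at least 1.5 times in 2 of the 13, the site beyond Ikzf3 (0.522) and the peak inside Ikzf4 (0.646), against 22.5% of pairs in the list. On depth-scaled pileup none of the 13 was lower by that much, against 17.7% of pairs in the list, with ratios of 0.683 and 0.675 at these sites. Without the added constant 1 of the 13 was, against 18.9%. A rise by at least 1.5 times was seen in none of the 13, against 2.24%. With the nearest RA peak within 5 kb taken as partner, as the methods define shared sites, there were 26 pairs, of which 12 had a lower fold after RA (46.2%, 28.8 to 64.5), against 66.9% in the list. At 13 of these 26 the partner is a neighbouring peak and not the same site.

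**Figure D5:**
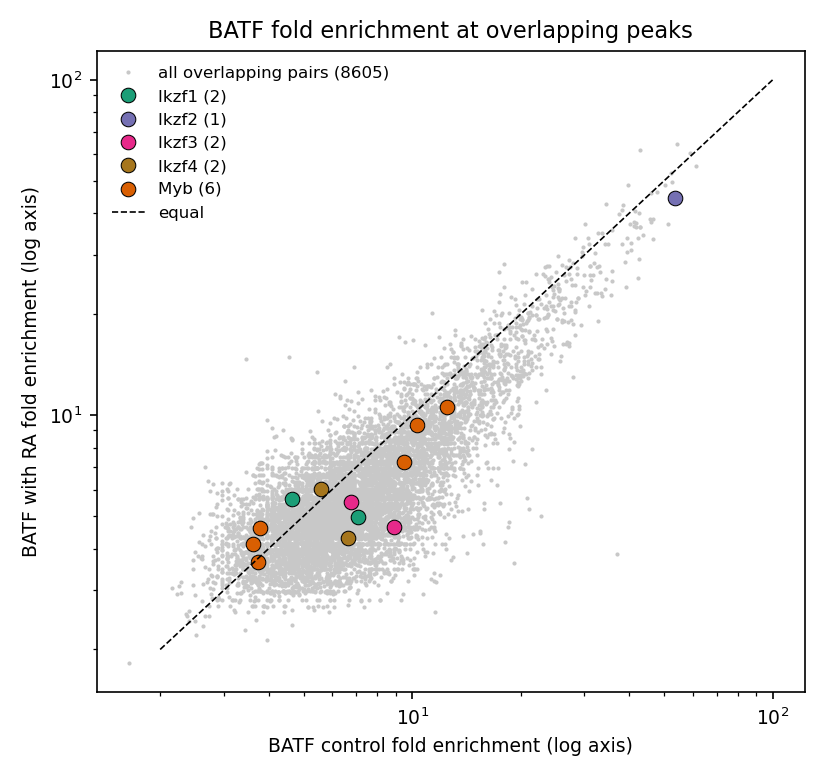
BATF fold enrichment with RA against control (both axes logarithmic) at all 8605 overlapping pairs of peaks (grey) and the 13 pairs at Ikzf1, Ikzf2, Ikzf3, Ikzf4 and Myb (coloured), with a dashed line of equal values. The Ikzf2 pair stands near the top at 53.7 and 44.3, and 9 of the 13 pairs lie below the line.

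Member peaks differed in class from the list, although they came from 5 genes and peaks of 1 gene are not independent. Promoters held 7 of the 40 BATF control peaks (17.5%, 8.75 to 32.0), where 58.7% of the list was at promoters, and introns held 18 (45.0%, 30.7 to 60.2), where the list had 20.1%. Ikzf1 alone supplied 12 of the 18 intron peaks. Without it, introns held 6 of 24 peaks (25%, 12.0 to 44.9) and promoters 4 of 24 (16.7%, 6.68 to 35.9), so the low promoter share did not rest on Ikzf1 and the high intron share did. Intergenic peaks were 13 of the 40 (32.5%, 20.1 to 48.0), where the list had 18.1%, and 12 of 24 (50%, 31.4 to 68.6) without Ikzf1. The IgG level at the 40 peaks had a median of 1.59 times background, equal to that of the list, and ranged from 1.00 to 3.15. Annotation that named several genes affected 12 of the 40, and these were the 12 intergenic peaks outside Ikzf1. The only intergenic peak naming a member alone was the 1 at Ikzf1, so the high intergenic share rested on peaks assigned to several genes.

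Genes that work with these factors also carried BATF peaks. Of 17 genes of the NuRD and other co-repressor complexes that Ikaros proteins recruit, 16 had a BATF peak in the control and 13 with RA, with Sin3b the exception in the control, beside 48.6% and 38.2% of all protein-coding genes. The BATF control peaks of Mta1, Ctbp2 and Gatad2b were all intergenic and name several genes each. RARα control peaks were assigned to Mta1, Mta3 and Rbbp4, with folds of 2.77, 4.41 and 3.35, and none of the 17 had a RARα peak with RA, where the shares of all genes were 7.18% and 3.19%. Those of Mta1 and Mta3 are intergenic and name 7 and 2 genes, and that of Rbbp4 is at a promoter and names 2. The list of 17 genes was chosen with earlier results known and its counts were not tested. The highest BATF control fold in this group, 13.6, was that of an intergenic peak which names 5 genes, with Mta1, a NuRD subunit, among them. Of 6 relatives and coactivators of Myb, 6 had a BATF peak in the control and 5 with RA, beside the same 48.6% and 38.2%. The highest was an intergenic peak naming 5 genes, among them Mybl2, a cell cycle relative of Myb, with folds of 38.5 and 42.3, and Kmt2a, a histone methyltransferase, had 29.6 and 29.9. RARα peaks were assigned to Ep300 and Mybl2 in the control, with folds of 3.28 and 2.97, and to Crebbp with RA, with 2.53, which makes 2 and 1 of 6 genes beside 7.18% and 3.19%. The RARα peak of Mybl2 is intergenic and names 5 genes. All 5 marker genes of CD8 T cells (Cd8a, Cd8b1, Cd3d, Cd3e and Cd3g) had BATF peaks in both lists and Cd4 had none, while 4 of 4 B cell genes and 1 of 4 myeloid genes had a BATF control peak, beside 48.6% of all genes. Peaks mark binding and not expression, so they do not check the identity of the cells.

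Likeness of pattern was measured as the distance between the log2 values of each gene's highest fold over the 4 lists, with 0 for no peak. Closest to Ikzf2 was Sdc4, at 0.43, with 3.37 in RARα control, 46.1 in BATF control and 37.6 in BATF with RA. Ikzf3 was closest to Gemin2, at 0.23, followed by Dedd2 and Dusp5. For the members without RARα peaks many genes came close, with Larp4, Tnf and Seh1l nearest to Ikzf1, Haao, Col12a1 and Cox7a2 to Ikzf4, and Hmgb2, Galnt7 and Scrg1 to Myb. Col12a1 and Cox7a2 had equal values in all 4 lists, as did Galnt7 and Scrg1. Hmgb2 had the same BATF control value as these last genes, 12.6, so such matches may not be separate sites.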

How the data were processed

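Paired-end ChIP-seq reads of 151 bp had been aligned by the authors with Bowtie2 to mm10, and duplicates removed. The authors called peaks with MACS 2.2.7.1 on pools of 2 ChIP files against 1 IgG file, with a p-value cutoff of 0.001 for RARα and 1e-05 for BATF. The IgG sample has no list of its own. In the deposited lists the pileup is a signal, the fragments at the summit, which in the BATF control list is scaled down slightly, undone here before division by depth. The deposited fold enrichment is a ratio, pileup plus 1 over local IgG level plus 1, from which the IgG level was recovered. Deposited p-values and q-values are on the -log10 scale. The headers say that q-values were not calculated although values are present, and they served only as an alternative threshold. The tool that assigned genes to peaks is not given in the sources used here. The pooling leaves no replicates, so no test was run, and precision is limited by the depths given above.

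Members were found by the gene field of each list, split on semicolons, and distances were measured to gene ranges of the RefSeq table for GRCm38.p6, the assembly behind mm10. Of the names in the lists, 99.5% to 99.7% matched that table. Peaks counted as shared within 5 kb, after the methods, or by overlap of at least 1 bp. All 6 genes, every RARα peak and the strongest BATF peaks were named by rule, and the other single BATF peaks were chosen after their values were seen. The members and lists were chosen with earlier results of these data known. Pairing was tested on simulated data with planted pairs. Python 3.11.15 was used, with scipy 1.17.1 for intervals, pandas 2.3.3 and numpy 2.4.6 for tables and matplotlib 3.10.9 for plots.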

Additional observations from a re-analysis of the deposited data

How the results depend on the processing

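No paired analysis was possible because each condition is 1 list called on pooled files. Of 79 values recomputed under an alternative, 49 stayed within 1.5 times the count or within the interval and 30 moved. The scaling to the depth of the RA pool, the fold limit on the control list alone and the classes without Ikzf1 were added after the data were seen, and the other alternatives were set with earlier results known. Thresholds decided the RARα counts. With p-values of at most 1e-05 the 3 RARα control peaks became 1, the site beyond Ikzf3, and 100% of them had a RARα RA peak and a BATF control peak within 5 kb. With q-values of at most 0.05, or a fold of at least 5, the control list kept 1 and the RA list 0, and 0 RARα RA peaks named a member alone. A fold of at least 5 in both lists left 19 BATF control and 8 BATF RA peaks, and 42.1% of the 19 had one of the remaining RA peaks within 5 kb. With every RA peak kept this was 68.4%, so the lower share came from the RA peaks removed. Peaks naming a member alone numbered 9 in the BATF RA list. The share of BATF control peaks kept depended on the tolerance, with 32.5% by overlap and 37.5% within 1 kb in place of 65.0% within 5 kb, and 69.2% of overlapping pairs were lower with RA in place of 46.2% (53.8% by depth-scaled pileup within 5 kb), since a wider tolerance pairs neighbouring peaks. With a fold of at least 5, Ikzf1 had 6 BATF control peaks and 1 with RA. Within 10 kb of the gene, Myb had 2 BATF control and 3 BATF RA peaks. Weak peaks near the p-value cutoffs, such as both RARα peaks at Ikzf2, rest on 9 and 10 fragments.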
